A study of Mus musculus with 10 samples.

Results

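Ribosome biogenesis factors are the proteins that make and process ribosomal RNA (rRNA) and assemble it with ribosomal proteins, and their transcripts were followed in overloaded mouse plantaris muscle. The set held 39 listed genes, matched by symbol to the array annotation, with the brightest probe set of 1 symbol standing for each gene. Of these, 37 of the 22180 genes measured had such a probe set. Fbl, the rRNA methyltransferase fibrillarin, and Tsr1, a factor of the small subunit, lie only on probe sets that also carry the symbol of another gene, and no value is given for them. Npm1, Ddx21, Nop56 and Rrs1 had more than 1 probe set.

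The plantaris of male C57BL/6 mice was overloaded by synergist ablation, in which neighbouring muscles that share its work are removed. Of the 5 groups, 1 had no overload, and the others were overloaded for 3 d or 10 d, either without or with a drug that inhibits the signalling of platelet-derived growth factor (PDGF). Each group had 2 arrays, and each array held equal amounts of RNA from 4 muscles, here called a pool. The series asked how blocking PDGF signalling affects muscle growth under load. The sources used here give neither the name and dose of the inhibitor nor the age of the mice, no group received the inhibitor without overload, and pool numbers only name the arrays. Nothing in the labels states that a group's pools were of different mice, so the p-values reflect the scatter of these pools, which may be technical.

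As background, RNA polymerase I transcribes a long precursor rRNA in the nucleolus, small nucleolar particles of the box C/D and box H/ACA kinds guide its methylation and pseudouridylation, and assembly factors build the small and the large subunit around it. Myc is a transcription factor known to activate many of these genes. Growing muscle is known to raise its ribosome content.

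All values are the authors' log2 expression values, on which 1 unit is a doubling. The median of all probe sets was 2.40 to 2.45 on every array, and r across genes was 0.989 to 0.992 for the pools within a group. All 10 fibre markers were above the array median in every pool. Their summed linear levels were 34680 to 34810 without overload, 31790 to 32410 at 3 d and 30860 to 31750 at 3 d with the inhibitor. At 10 d they were 35870 to 36690, and 36610 to 37020 with the inhibitor. Pool 1 of 3 d overload stood apart by genes of granulocyte precursors: Elane was at 5.21 and Mpo at 5.02 there, against at most 1.75 in every other pool. A gene was called risen or fallen at an adjusted p under 0.05 in limma, with Benjamini-Hochberg adjustment over all genes of a comparison, and ± marks the standard error of a log2 difference. In whole muscle, more cells of a type and more RNA per cell cannot be told apart.

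Promoter sequences were read because members that moved together can be set side by side. They came from RefSeq, build GRCm38.p6, as windows from 250 bases before to 50 after the annotated start, and 33 of the 39 genes had one. The bases before the start are shown for Ddx21, Gar1 and Nip7, the members that passed the test at 3 d whichever array was left out, at chr10:62602299-62602548 on the minus strand, chr3:129831397-129831646 on the minus strand and chr8:107056627-107056876 on the plus strand. Capitals mark the letters CGGAAG on either strand, the core that Ets family factors bind.
Ddx21: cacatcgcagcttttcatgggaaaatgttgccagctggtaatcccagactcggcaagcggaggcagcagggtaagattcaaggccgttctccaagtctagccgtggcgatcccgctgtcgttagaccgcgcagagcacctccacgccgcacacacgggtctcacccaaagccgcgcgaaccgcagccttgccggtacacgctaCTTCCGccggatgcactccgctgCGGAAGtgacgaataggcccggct
Gar1: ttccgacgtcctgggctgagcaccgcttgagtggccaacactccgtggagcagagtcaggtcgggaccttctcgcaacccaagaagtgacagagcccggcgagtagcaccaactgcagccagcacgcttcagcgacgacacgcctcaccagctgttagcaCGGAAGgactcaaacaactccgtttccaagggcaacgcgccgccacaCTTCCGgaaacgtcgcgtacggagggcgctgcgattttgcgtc
Nip7: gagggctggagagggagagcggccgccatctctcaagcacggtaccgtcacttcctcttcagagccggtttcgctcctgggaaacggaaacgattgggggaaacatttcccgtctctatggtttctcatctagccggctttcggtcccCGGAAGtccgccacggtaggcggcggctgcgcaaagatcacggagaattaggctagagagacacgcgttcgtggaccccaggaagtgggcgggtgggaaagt

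CGGAAG occurred on either strand in 18 of 33 member windows by gene (54.5%), against 18.8% of 27025 genes. Besides these 3 genes it occurred in the windows of Nhp2, Noc2l and Noc3l among the members called at 3 d, and not in those of Nop58 and Gnl3. Member windows were also rich in CpG, with a median of 22.5 CpG per window against 7 over all windows, and CGGAAG holds a CpG itself.

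The E-box CACGTG, which Myc binds with its partner Max, was searched because Myc is itself a member. Like CGGAAG, the E-box holds a CpG, and the part of CpG content in how often either occurs was not tested. The E-box letters cannot overlap CGGAAG on either strand, and the E-box occurred in 8 of 33 members (24.2%), against 8.09% of genes. The stretches around it, with the E-box in capitals, show where it lies in the genes described below. Rrn3 holds 2, at chr16:13780472-13780501 and chr16:13780639-13780668, Nop2 has it at chr6:125131811-125131840 and Wdr43 at chr17:71616220-71616249, all on the plus strand.
Rrn3: gagcgccaaggtCACGTGcacacgcctcta
Rrn3: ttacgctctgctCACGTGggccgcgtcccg
Nop2: gtgtccctggatCACGTGtgttccggtgcc
Wdr43: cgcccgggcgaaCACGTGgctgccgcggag

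The other members with CACGTG were Ltv1, Mybbp1a, Pes1, Tsr1 and Utp20. None of the members called at 3 d of overload that had a window held these letters, and Wdr43 was among the members that fell between 3 d and 10 d. Each match describes letters in a short window, and nothing was drawn from a match or its absence about a factor.

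After 3 d of overload, 9 of the 37 members rose and 0 fell (24.3% rose, against 9.31% of all genes). Those that rose were Myc, the helicase Ddx21, Nop58 of the box C/D particle, Gar1 and Nhp2 of the box H/ACA particle, and the large subunit factors Nip7, Noc2l, Noc3l and Gnl3. The median log2 difference of the members was 0.25, against -0.04 over all genes, and 29 of 37 lay above 0. In either direction 17.5% of all genes were called, and 8.18% fell. After 3 d with the inhibitor, again 9 members rose and 0 fell (background 7.71% rose and 6.51% fell), with a median of 0.39 against 0.00 over all genes. Of these 9, 8 were called in both comparisons; Nhp2 was called only without and Rrp12 only with the inhibitor, a contrast that the test of the inhibitor itself, given further on, did not call for either gene. The 2 comparisons share the pools without overload. The members were chosen with earlier results of these data known, so these shares describe the list and do not test it. Among 124 other measured ribosome biogenesis genes, given further on, 9.68% rose at 3 d and 16.9% at 3 d with the inhibitor.

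**Figure D1:**
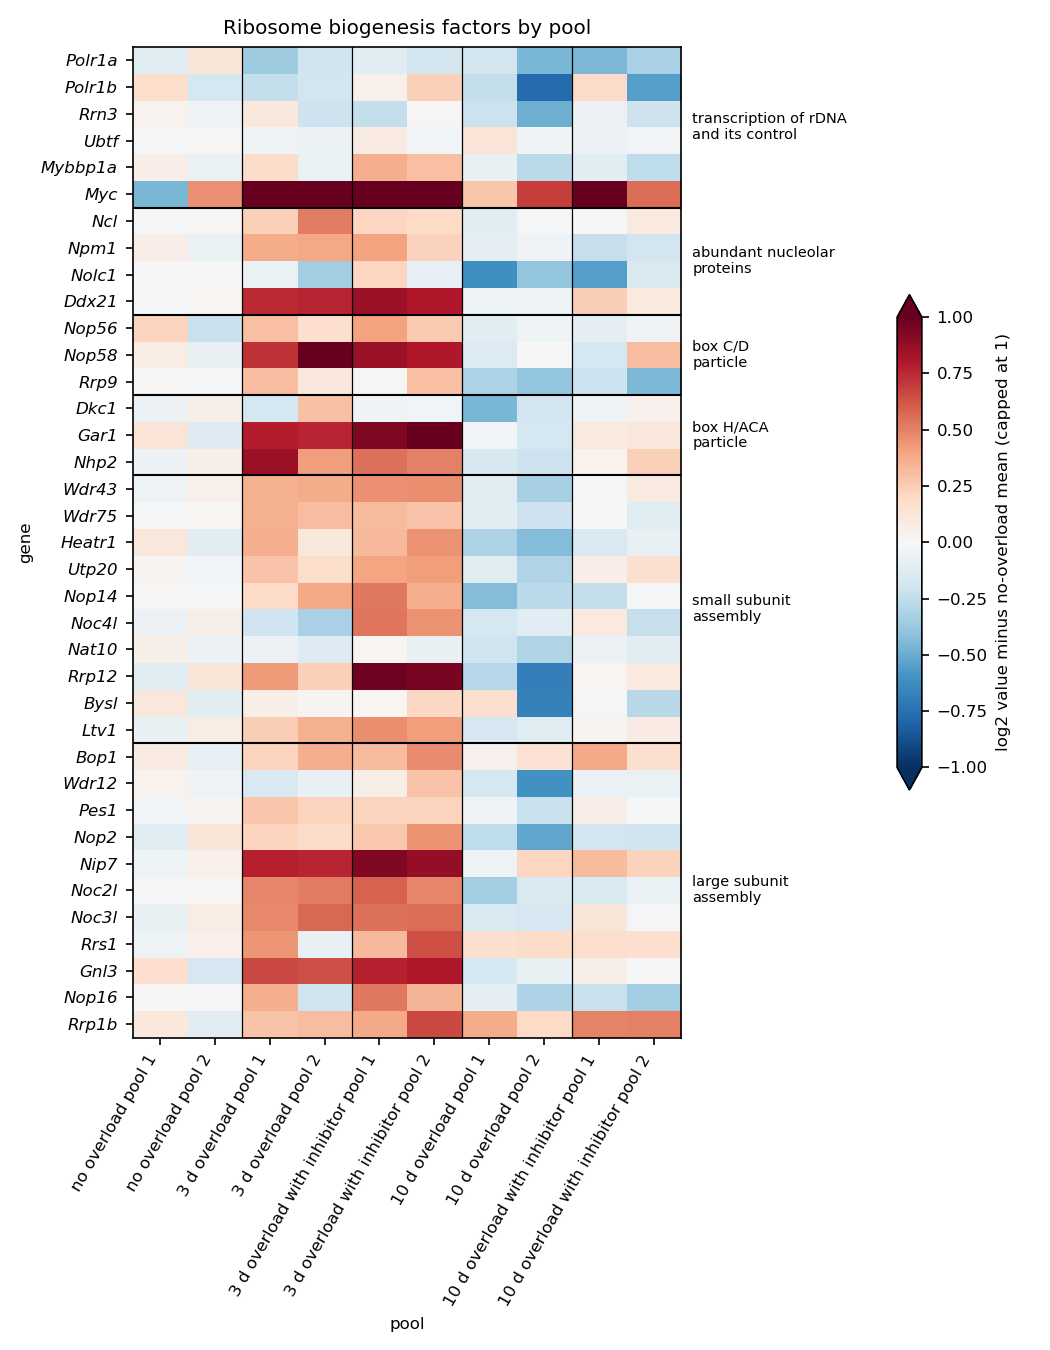
Each of the 37 measured ribosome biogenesis factors (rows, by role) in each of the 10 pools (columns), as its log2 value minus the mean of the pools without overload; the colour scale is capped at 1. Red in the 4 pools of 3 d marks members above the no-overload mean, strongest in Myc, Ddx21, Nop58, Gar1, Nhp2, Nip7, Noc2l, Noc3l and Gnl3, and in Rrp12 with the inhibitor, while most members are pale or blue at 10 d.

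Transcription of ribosomal DNA and its control was covered by 6 members. Myc had 5.15 and 6.05 without overload, 7.78 and 7.12 at 3 d, 7.96 and 7.60 at 3 d with the inhibitor, 5.88 and 6.29 at 10 d, and 6.78 and 6.16 at 10 d with it. All 4 pools of 3 d lay above the other 6 pools, and the pools of 10 d without the inhibitor overlapped those without overload. Myc rose by 1.85 ± 0.36 at 3 d (3.61-fold, adjusted p = 0.0079) and by 2.18 ± 0.36 at 3 d with the inhibitor (4.53-fold, adjusted p = 0.0052). Without pool 1 of 3 d overload, the Myc difference was 1.52 and no longer passed (adjusted p = 0.064).

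Unlike Myc, the polymerase subunits Polr1a and Polr1b were not called in any comparison, and the difference between these genes and Myc was not tested. Polr1a, its largest subunit, had 7.58 and 7.82 without overload, 7.35 and 7.50 at 3 d, 7.60 and 7.52 at 3 d with the inhibitor, 7.52 and 7.25 at 10 d, and 7.25 and 7.38 at 10 d with it. The pools of 3 d without the inhibitor and all pools of 10 d lay below those without overload, and no difference from no overload passed the test (3 d, -0.28 ± 0.16, adjusted p = 0.29; 10 d, -0.32 ± 0.16, adjusted p = 0.29). Polr1b, the second catalytic subunit, had 5.50 and 5.15 without overload, 5.09 and 5.14 at 3 d, 5.38 and 5.57 at 3 d with the inhibitor, 5.08 and 4.56 at 10 d, and 5.52 and 4.77 at 10 d with it. Its pools scattered more than those of the other polymerase genes, and its 3 d difference was -0.21 ± 0.27 (adjusted p = 0.68).

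Rrn3, which brings the polymerase to the ribosomal DNA promoter, had 7.53 and 7.45 without overload, 7.59 and 7.28 at 3 d, 7.25 and 7.50 at 3 d with the inhibitor, 7.27 and 6.999 at 10 d, and 7.43 and 7.28 at 10 d with it. The groups of 3 d overlapped those without overload, and all pools of 10 d lay below the pools without overload (10 d, -0.35 ± 0.17, adjusted p = 0.29). Ubtf, which binds along active ribosomal DNA, had 7.65 and 7.68 without overload, 7.63 and 7.61 at 3 d, 7.75 and 7.64 at 3 d with the inhibitor, 7.79 and 7.63 at 10 d, and 7.61 and 7.64 at 10 d with it. Its 10 pools spanned the narrowest range among these genes. The 95% interval of its 3 d difference ran from -0.33 to 0.25, and that of Rrn3 from -0.44 to 0.34, so these arrays bound such changes without showing that there were none. Mybbp1a, a nucleolar Myb-binding protein, was not called in any comparison. Of these 6 members Myc alone was called at 3 d, and 4 lay below 0.

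Among the abundant nucleolar proteins, Ddx21, an RNA helicase that links polymerase I transcription to rRNA processing, had 6.93 and 6.96 without overload, 7.69 and 7.71 at 3 d, 7.81 and 7.75 at 3 d with the inhibitor, 6.90 and 6.89 at 10 d, and 7.19 and 7.04 at 10 d with it. Every pool of 3 d stood at least as high as 7.69, and no other pool passed 7.19. Ddx21 rose by 0.76 ± 0.12 at 3 d (1.69-fold, adjusted p = 0.0038) and by 0.83 ± 0.12 with the inhibitor (1.78-fold, adjusted p = 0.0035), and it was called whichever array was left out. Its dimmer probe set differed by 0.66 at 3 d but by -0.18 at 3 d with the inhibitor. With the mean of its probe sets the latter difference was 0.32 and did not pass (adjusted p = 0.28).

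Nolc1, a chaperone of small nucleolar particles, had 7.01 and 7.01 without overload, 6.94 and 6.66 at 3 d, 7.22 and 6.92 at 3 d with the inhibitor, 6.40 and 6.61 at 10 d, and 6.46 and 6.86 at 10 d with it. All pools of 10 d lay below the pools without overload, and the 10 d difference of -0.50 ± 0.19 did not pass (adjusted p = 0.18). Nucleolin (Ncl) and nucleophosmin (Npm1), both abundant in the nucleolus, were higher in all 4 pools of 3 d than in the other 6, with 3 d differences of 0.38 ± 0.14 (adjusted p = 0.10) and 0.38 ± 0.13 (adjusted p = 0.082). Neither was called against no overload.

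In the box C/D particle, which methylates rRNA, the core protein Nop58 had 6.58 and 6.43 without overload, 7.22 and 7.52 at 3 d, 7.37 and 7.31 at 3 d with the inhibitor, 6.37 and 6.51 at 10 d, and 6.33 and 6.81 at 10 d with it. The pools of 3 d were all above the rest, and those of 10 d spanned the pools without overload. Nop58 rose by 0.87 ± 0.19 at 3 d (1.82-fold, adjusted p = 0.013) and by 0.83 ± 0.19 with the inhibitor (1.78-fold, adjusted p = 0.020). Its 3 d call was lost without pool 2 of no overload or pool 2 of 3 d overload (highest adjusted p = 0.087 on leaving out 1 array), and the call with the inhibitor was lost without any 1 pool of either group compared (highest adjusted p = 0.10).

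Rrp9, a protein of the small nucleolar particle that starts small subunit processing, had 4.92 and 4.89 without overload, 5.21 and 5.02 at 3 d, 4.92 and 5.21 at 3 d with the inhibitor, 4.59 and 4.52 at 10 d, and 4.69 and 4.46 at 10 d with it. Its pools of 10 d were the lowest, and the 10 d difference of -0.35 ± 0.16 did not pass (adjusted p = 0.25). Nop56, the partner of Nop58, differed by 0.23 ± 0.17 at 3 d and by 0.33 ± 0.17 at 3 d with the inhibitor, and neither passed. Its dimmer probe sets differed by 0.62 and 0.17 at 3 d, and by 0.07 and -0.45 at 3 d with the inhibitor. Nop58 rose and Nop56 did not pass the test; the difference between these genes was not tested.

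In the box H/ACA particle, which turns uridine into pseudouridine, the core protein Gar1 had 4.02 and 3.76 without overload, 4.68 and 4.66 at 3 d, 4.82 and 4.95 at 3 d with the inhibitor, 3.86 and 3.72 at 10 d, and 3.99 and 4.004 at 10 d with it. The 4 pools of 3 d formed a group above 4.65, with all others at 4.02 or less. Gar1 rose by 0.77 ± 0.14 at 3 d (1.71-fold, adjusted p = 0.0064) and by 0.99 ± 0.14 with the inhibitor (1.99-fold, adjusted p = 0.0029). Both calls held on leaving out any 1 array.

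Nhp2, another core protein of the particle, had 5.65 and 5.78 without overload, 6.58 and 6.13 at 3 d, 6.27 and 6.22 at 3 d with the inhibitor, 5.55 and 5.51 at 10 d, and 5.75 and 5.95 at 10 d with it. Pool 1 of 3 d overload was the highest. Nhp2 rose by 0.64 ± 0.17 at 3 d (1.56-fold, adjusted p = 0.033), and without that pool the difference was 0.42 and did not pass (adjusted p = 0.19). The call was also lost without either pool of no overload or of 3 d with the inhibitor. Dkc1, the pseudouridine synthase dyskerin, had 6.31 and 6.42 without overload, 6.19 and 6.65 at 3 d, 6.33 and 6.34 at 3 d with the inhibitor, 5.90 and 6.17 at 10 d, and 6.33 and 6.40 at 10 d with it. The enzyme's transcript overlapped between no overload and 3 d, at a difference of 0.06 ± 0.18 (95% interval -0.34 to 0.46).

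**Figure D2:**
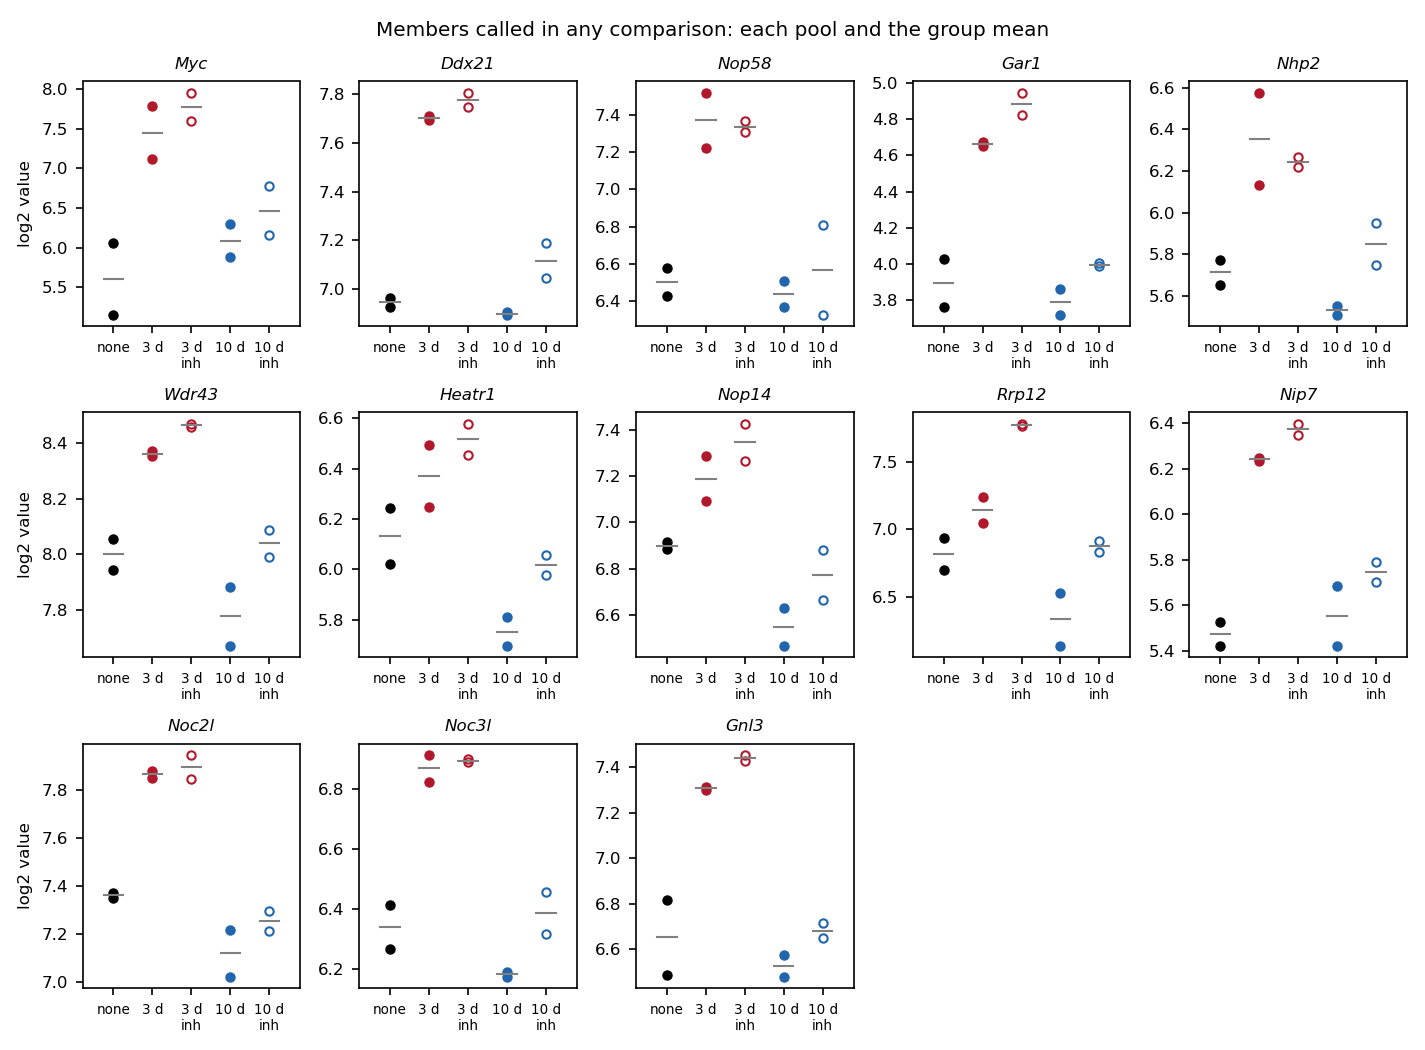
The log2 value of each pool (points) and the group mean (bars) for the 13 members called in any comparison, with no overload in black, 3 d in red, 10 d in blue and inhibited groups as open points; each panel has its own axis, which does not start at 0. In all 13 panels the 4 pools of 3 d lie above the other 6 pools, though only just in Heatr1. Rrp12 is highest at 3 d with the inhibitor.

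The assembly of the small subunit was covered by 10 measured members, of which 0 were called at 3 d and 1, Rrp12, at 3 d with the inhibitor. At an unadjusted p under 0.05, 3 passed at 3 d and 8 with the inhibitor (backgrounds 29.3% and 26.4%), and the median differences were 0.26 and 0.42. Rrp12, which acts in subunit maturation and export, had 6.69 and 6.93 without overload, 7.24 and 7.05 at 3 d, 7.78 and 7.77 at 3 d with the inhibitor, 6.53 and 6.13 at 10 d, and 6.83 and 6.91 at 10 d with it. The inhibited pools of 3 d were the highest of all and the uninhibited pools of 10 d the lowest. Rrp12 rose by 0.96 ± 0.17 at 3 d with the inhibitor (1.95-fold, adjusted p = 0.0073), while its 3 d difference without it was 0.33 ± 0.17 (adjusted p = 0.24). Without pool 1 of no overload the inhibited rise missed the threshold (adjusted p = 0.053).

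Noc4l, the partner of Nop14, had 4.92 and 5.04 without overload, 4.78 and 4.65 at 3 d, 5.52 and 5.42 at 3 d with the inhibitor, 4.81 and 4.88 at 10 d, and 5.08 and 4.75 at 10 d with it. It lay below the no-overload pools at 3 d and above them at 3 d with the inhibitor, with differences of -0.26 ± 0.15 (adjusted p = 0.30) and 0.49 ± 0.15 (adjusted p = 0.064). Wdr43, of the complex that joins the precursor as it is transcribed, had 7.95 and 8.05 without overload, 8.35 and 8.37 at 3 d, 8.46 and 8.47 at 3 d with the inhibitor, 7.88 and 7.67 at 10 d, and 7.99 and 8.09 at 10 d with it. Its pools of 3 d were all above the rest, at a 3 d difference of 0.36 ± 0.13 that did not pass (adjusted p = 0.10).

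Heatr1, of the same complex, had 6.24 and 6.02 without overload, 6.49 and 6.25 at 3 d, 6.45 and 6.58 at 3 d with the inhibitor, 5.81 and 5.70 at 10 d, and 5.98 and 6.06 at 10 d with it. Nop14, a scaffold of the early small subunit, had 6.92 and 6.88 without overload, 7.09 and 7.29 at 3 d, 7.43 and 7.26 at 3 d with the inhibitor, 6.47 and 6.63 at 10 d, and 6.66 and 6.88 at 10 d with it. Both genes had their lowest mean at 10 d of overload and their highest at 3 d with the inhibitor, and neither was called against no overload (3 d without the inhibitor, 0.24 ± 0.15 and 0.29 ± 0.15). Wdr75, Utp20, Nat10, Bysl and Ltv1 were not called in any comparison, and their 3 d differences ran from -0.09 for the RNA acetyltransferase Nat10 to 0.34 for Wdr75.

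The assembly of the large subunit held 11 members, of which 4 rose at 3 d, and the same 4 at 3 d with the inhibitor. Nip7, a factor of large subunit rRNA processing, had 5.42 and 5.53 without overload, 6.25 and 6.24 at 3 d, 6.40 and 6.35 at 3 d with the inhibitor, 5.42 and 5.69 at 10 d, and 5.79 and 5.70 at 10 d with it. The pools of 3 d lay between 6.24 and 6.40, above all others. Nip7 rose by 0.77 ± 0.14 at 3 d (1.70-fold, adjusted p = 0.0059) and by 0.90 ± 0.14 with the inhibitor (1.87-fold, adjusted p = 0.0040).

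Gnl3, the nucleolar GTPase nucleostemin, known from stem and dividing cells, had 6.82 and 6.49 without overload, 7.31 and 7.30 at 3 d, 7.43 and 7.46 at 3 d with the inhibitor, 6.48 and 6.58 at 10 d, and 6.71 and 6.65 at 10 d with it. Its groups at 3 d did not overlap any other. Gnl3 rose by 0.65 ± 0.14 at 3 d (1.57-fold, adjusted p = 0.015) and by 0.79 ± 0.14 with the inhibitor (1.73-fold, adjusted p = 0.0087). The first call was lost without pool 2 of no overload or either pool of 3 d overload (highest adjusted p = 0.092), and the second without pool 2 of no overload or pool 1 of the inhibited group (highest adjusted p = 0.054).

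Noc2l, which with Noc3l escorts large subunit precursors through the nucleus, had 7.35 and 7.37 without overload, 7.85 and 7.88 at 3 d, 7.95 and 7.85 at 3 d with the inhibitor, 7.02 and 7.22 at 10 d, and 7.21 and 7.30 at 10 d with it. Noc3l had 6.27 and 6.41 without overload, 6.82 and 6.92 at 3 d, 6.89 and 6.90 at 3 d with the inhibitor, 6.19 and 6.17 at 10 d, and 6.46 and 6.32 at 10 d with it. Both were highest in the 4 pools of 3 d, and Noc2l lay below no overload in all 4 pools of 10 d. At 3 d Noc2l rose by 0.51 ± 0.13 (1.42-fold, adjusted p = 0.029) and Noc3l by 0.53 ± 0.13 (1.44-fold, adjusted p = 0.023). With the inhibitor the rises were 0.54 ± 0.13 (adjusted p = 0.028) and 0.55 ± 0.13 (adjusted p = 0.023). Each of these calls was lost without any 1 pool of the groups compared (adjusted p up to 0.14).

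Wdr12, which works in a complex with Pes1 and Bop1, had 5.80 and 5.74 without overload, 5.62 and 5.70 at 3 d, 5.83 and 6.06 at 3 d with the inhibitor, 5.60 and 5.17 at 10 d, and 5.71 and 5.71 at 10 d with it. It was the large subunit member with the lowest 3 d difference, -0.11 ± 0.17, and it was not called. Bop1 and Pes1, the rRNA methyltransferase Nop2, and Rrs1, Nop16 and Rrp1b were not called in any comparison, and their 3 d differences ran from 0.08 for Nop16 to 0.29 for Rrp1b and Bop1. Rrp1b was the member with the smallest p at 10 d with the inhibitor, at 0.50 ± 0.15 (adjusted p = 0.16).

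**Figure D3:**
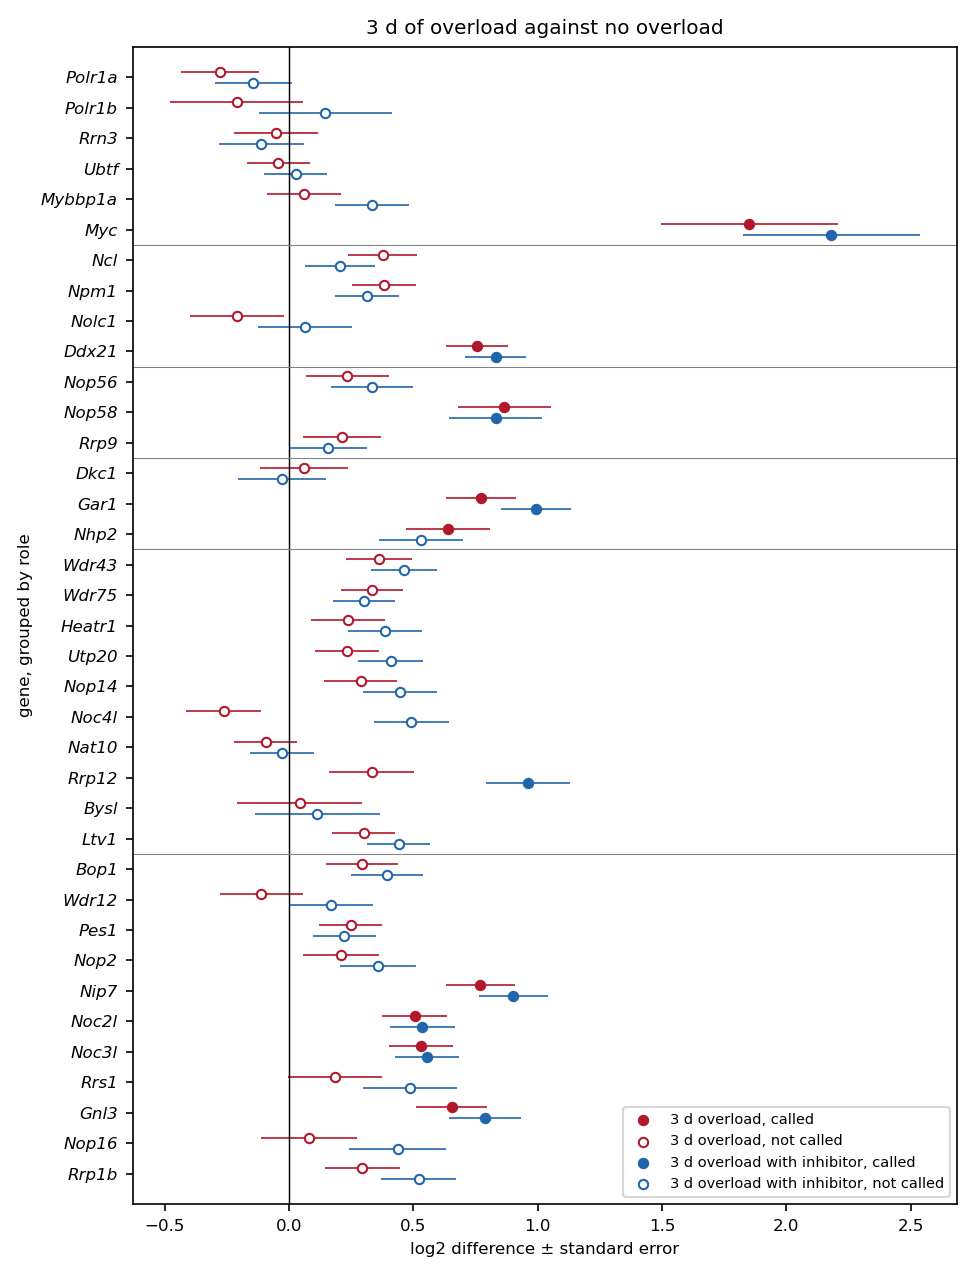
Log2 difference from no overload at 3 d (red) and at 3 d with the inhibitor (blue) for each of the 37 members, with the standard error as a line and filled points for members called at an adjusted p under 0.05. Myc lies farthest right at 1.85 and 2.18, Rrp12 and Noc4l are set apart between the colours, and the polymerase genes stay near or below 0.

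At 3 d, markers of other cells were higher too. Summed linear levels of 11 macrophage and monocyte markers ran from 347 to 424 without overload, from 3459 to 3962 at 3 d and from 2693 to 3173 at 3 d with the inhibitor, and 11 and 10 of them rose. Sums over 10 markers of dividing cells were 165 to 186, 711 to 819 and 437 to 456, with 9 and 8 risen, and sums over 9 satellite cell and myoblast markers were 2278 to 2434, 3676 to 3721 and 3511 to 3798, with 6 and 5 risen. Fibroblast sums over 9 markers were 2564 to 2651, 4707 to 5109 and 3508 to 3706, with 5 and 3 risen. Neutrophil sums over 11 markers were 46.1 to 49.4, 112 to 456 and 178 to 242, with 2 risen in each. Endothelial sums over 6 markers were 1715 to 1798, 1620 to 1693 and 1611 to 1798, with 0 risen and 1 fallen at 3 d without the inhibitor. Fibre sums, given above, were lower in every pool of 3 d than in any other pool, with 1 of 10 markers fallen in each comparison. The 6 measured lymphocyte markers lay below the array median in every pool. The part of these cells in the rise of the members was not tested.

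Without pool 1 of 3 d overload, 4 members rose at 3 d, namely Ddx21, Nop58, Gar1 and Nip7, and the median of the members was 0.24. The count was also 4 without pool 2 of no overload and 5 without pool 2 of 3 d overload. With the inhibitor it was 5 without either pool of no overload or pool 1 of the inhibited group. No share of all genes called was set beside these counts, so they describe the members alone. The median over all genes shifted between groups. Relative to no overload the array medians over genes were 0.19 higher at 3 d and 0.12 higher at 3 d with the inhibitor. At 10 d they were 0.17 higher, and 0.08 higher with the inhibitor. With arrays set to a common median over genes, 5 members rose at 3 d (Myc, Ddx21, Nop58, Gar1 and Nip7) and 7 at 3 d with the inhibitor (backgrounds 7.06% and 5.93%). The median 3 d difference of the members was then 0.06 against -0.23 over all genes. On the deposited values 2066 of the 3881 genes called at 3 d were higher, and on the shifted values 1567 of 4862.

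At 10 d of overload, 0 members were called against no overload by limma (background 5.13%), and 6 had an unadjusted p under 0.05 (background 20.3%). Most members lay on the low side: 31 of 37 were below 0, with a median of -0.17 against -0.04 over all genes. Both pools were below both pools without overload for 24 of 37 members (background 28.1%). With arrays set to a common median over genes the median was -0.34 against -0.21 over all genes. The most negative differences were those of Polr1b at -0.51 ± 0.27, Nolc1 at -0.50 ± 0.19 and Rrp12 at -0.48 ± 0.17 (adjusted p = 0.34, 0.18 and 0.15). Myc was the highest, at 0.49 ± 0.36 (adjusted p = 0.50). At 10 d with the inhibitor, 0 members were called (background 1.56%), 3 had an unadjusted p under 0.05 (background 15.1%), and the median was -0.04 against -0.02 over all genes.

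**Figure D4:**
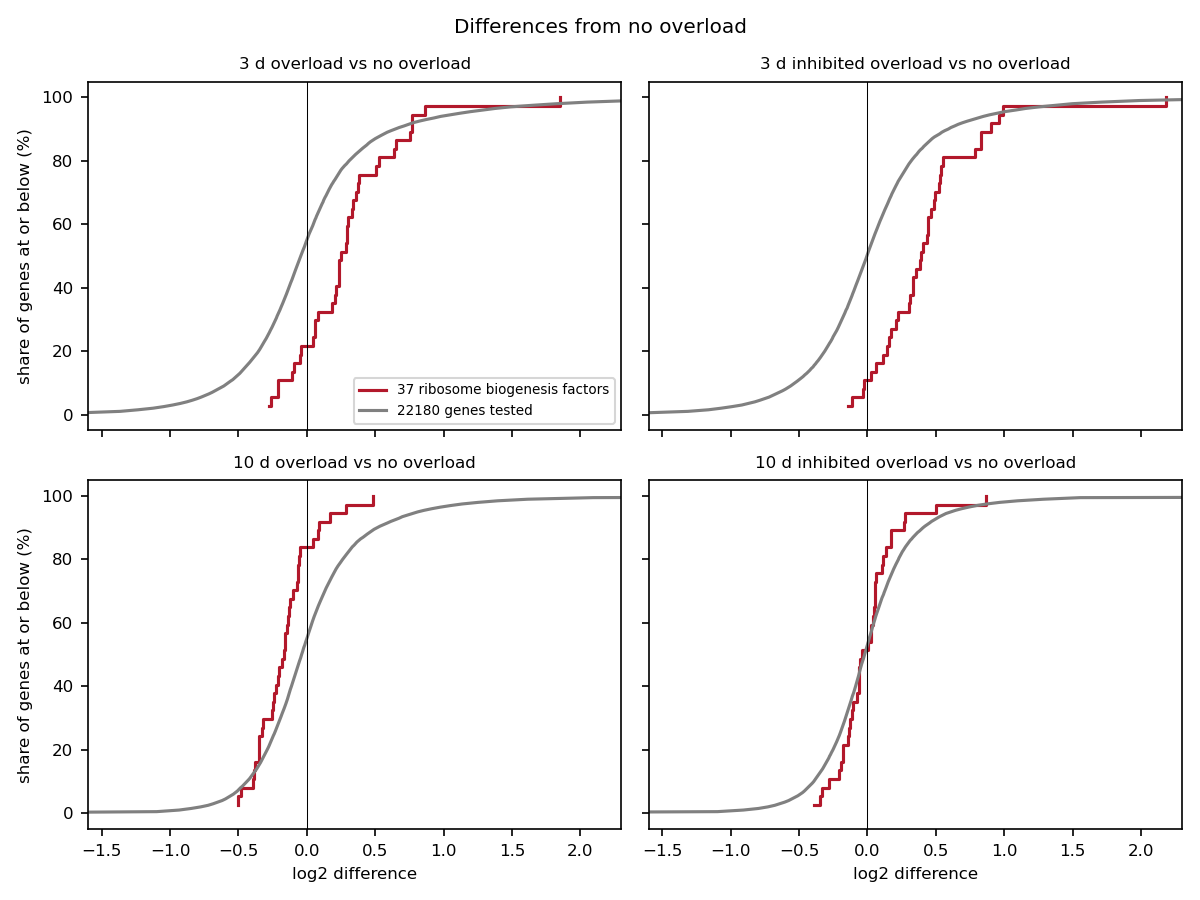
Share of genes at or below each log2 difference from no overload, for the 37 members (red steps) and all 22180 genes tested (grey), in 4 panels by overload time and inhibitor. The red curve lies to the right of grey at 3 d (medians 0.25 and 0.39), to its left at 10 d (median -0.17) and close to it at 10 d with the inhibitor (median -0.04); the axis is cut at -1.6 and 2.3.

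Between 3 d and 10 d of overload, 12 members fell and 0 rose (32.4% fell, against 3.38% of all genes; 2.7% of genes rose). Of the nucleolar particles and the helicase, Nop58 fell by 0.93 ± 0.19 (1.91-fold, adjusted p = 0.025), Gar1 by 0.88 ± 0.14 (1.84-fold, adjusted p = 0.013), Nhp2 by 0.82 ± 0.17 (1.77-fold, adjusted p = 0.027) and Ddx21 by 0.80 ± 0.12 (1.75-fold, adjusted p = 0.010). Of the small subunit members Rrp12 fell by 0.81 ± 0.17, Nop14 by 0.64 ± 0.15, Heatr1 by 0.62 ± 0.15 and Wdr43 by 0.58 ± 0.13 (adjusted p = 0.028, 0.041, 0.048 and 0.040). Of the large subunit members Gnl3 fell by 0.78 ± 0.14, Noc2l by 0.75 ± 0.13, Noc3l by 0.69 ± 0.13 and Nip7 by 0.69 ± 0.14 (adjusted p = 0.020, 0.016, 0.020 and 0.025). Myc differed by -1.37 ± 0.36 and did not pass (adjusted p = 0.061).

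The median difference of the members between these times was -0.44 against 0.01 over all genes, and both pools of 10 d were below both of 3 d for 30 of 37 members (background 24.2%). Leaving out 1 array gave between 0 and 10 falls: 0 without pool 1 of 3 d overload, 1 without its pool 2, and 3 without either pool of 10 d overload. Without pool 1 of 3 d overload the median was -0.47, and Ddx21 had the smallest adjusted p (-0.81, adjusted p = 0.066). Wdr43, Heatr1 and Nop14 lost their call whichever array was left out. The counts of falls on leaving out an array had no share of all genes beside them. Over the same interval 7 of 10 dividing-cell markers, 5 of 11 macrophage markers, 2 of 9 satellite cell and myoblast markers and 2 of 11 neutrophil markers fell, with dividing-cell sums of 332 to 333, macrophage sums of 1151 to 1732, satellite cell and myoblast sums of 3190 to 3441 and neutrophil sums of 46.5 to 51.0 at 10 d. Other lists were higher at 10 d than at 3 d, with fibroblast sums of 5521 to 8568, fibre sums of 35870 to 36690 and endothelial sums of 1931 to 2108. In each of these lists 1 marker rose and 0 fell. The part of any list in the fall of the members was not tested.

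With the inhibitor, 6 members fell between 3 d and 10 d and 0 rose (background 2.66% fell and 1.98% rose). They were Rrp12 at -0.90 ± 0.17, Gar1 at -0.89 ± 0.14, Gnl3 at -0.76 ± 0.14, Ddx21 at -0.66 ± 0.12, Noc2l at -0.64 ± 0.13 and Nip7 at -0.63 ± 0.14 (adjusted p = 0.025, 0.014, 0.026, 0.025, 0.031 and 0.041). All 6 also fell without the inhibitor, and the median was -0.41 against -0.03 over all genes. Of the 37 members, 31 had both inhibited pools of 10 d below both of 3 d (background 26.8%). Leaving out any pool of the inhibited groups left 0 calls. Here too no share of all genes was set beside that count. Ddx21 was lost with the mean of its probe sets (-0.13, adjusted p = 0.75). Of the markers, 5 of 10 for dividing cells, 4 of 11 for macrophages and 3 of 9 for satellite cells and myoblasts fell. In contrast, 1 of 10 fibre markers and 1 of 9 fibroblast markers rose. The part of these markers was not tested.

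Looking at single pools, 20 of 37 members had all 4 pools of 3 d above the other 6 pools (background 6.84%). They included Ncl, Npm1, Wdr75, Heatr1, Utp20, Ltv1, Pes1 and Nop2, none of which was called against no overload. With arrays set to a common median over genes, 14 members kept this order (background 5.33%), and Heatr1, Utp20, Nop14, Rrp12, Ltv1 and Nop2 did not. No member had all 4 pools of 3 d below both pools without overload (background 19.6%); on the shifted values Polr1a, Rrn3, Ubtf and Nat10 did (background 31.9%). All 4 pools of 10 d lay below both pools without overload for 10 members (background 15.7%). These were Polr1a, Rrn3, Mybbp1a, Nolc1, Rrp9, Nop14, Wdr12, Nop2, Noc2l and Nop16. On the shifted values 14 members did (background 26.4%), with Npm1, Wdr75, Heatr1 and Nat10 added. Only Rrs1 and Rrp1b had all 4 above (background 12.7%), and on the shifted values no member did (background 7.39%).

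The inhibitor was compared with none at each time. At 3 d, 0 members were called by limma, as were 0 of all genes (0%), and 2 members had an unadjusted p under 0.05 (background 9.07%). These were Noc4l, higher with the inhibitor by 0.75 ± 0.15 (95% interval 0.41 to 1.10, adjusted p = 0.22), and Rrp12, higher by 0.63 ± 0.17 (95% interval 0.24 to 1.01, adjusted p = 0.34). The median over the members was 0.13 against 0.03 over all genes, and both inhibited pools were above both others for 16 members (background 22.3%).

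At 10 d, 0 members were called (0.104% of all genes), and 2 had an unadjusted p under 0.05 (background 10.6%): Rrp12, higher by 0.54 ± 0.17 (95% interval 0.15 to 0.93, adjusted p = 0.30), and Utp20, higher by 0.33 ± 0.13 (adjusted p = 0.42). The median was 0.18 against 0.01 over all genes, with 31 of 37 above 0 and 21 with both inhibited pools higher (background 21.6%). On average over both times 0 members passed (0.289% of all genes), 4 had an unadjusted p under 0.05 (background 12.7%) and 33 of 37 lay above 0. Rrp12 had the smallest p, at 0.58 ± 0.12 (1.50-fold, adjusted p = 0.092), and its inhibited pools were above the uninhibited ones at both times. For the members called at 3 d without the inhibitor, the intervals of the inhibitor difference at 3 d included 0, among them Ddx21 (-0.21 to 0.36), Gar1 (-0.10 to 0.54) and Myc (-0.48 to 1.14).

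The inhibitor difference at 10 d minus that at 3 d was called for 0 members and 0 of all genes (0%) by limma. The only member with an unadjusted p under 0.05 (background 6.47%) was Noc4l, at -0.68 ± 0.21 (adjusted p = 0.68). Beside these values, dividing-cell sums at 10 d were 332 to 333 without and 208 to 232 with the inhibitor, macrophage sums 1151 to 1732 and 913 to 1035, fibroblast sums 5521 to 8568 and 3888 to 3921, and neutrophil sums 46.5 to 51.0 and 210.0 to 229. Averaged over both times, 5 of 10 dividing-cell markers fell with the inhibitor. Their part in the inhibitor differences of the members was not tested.

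**Figure D5:**
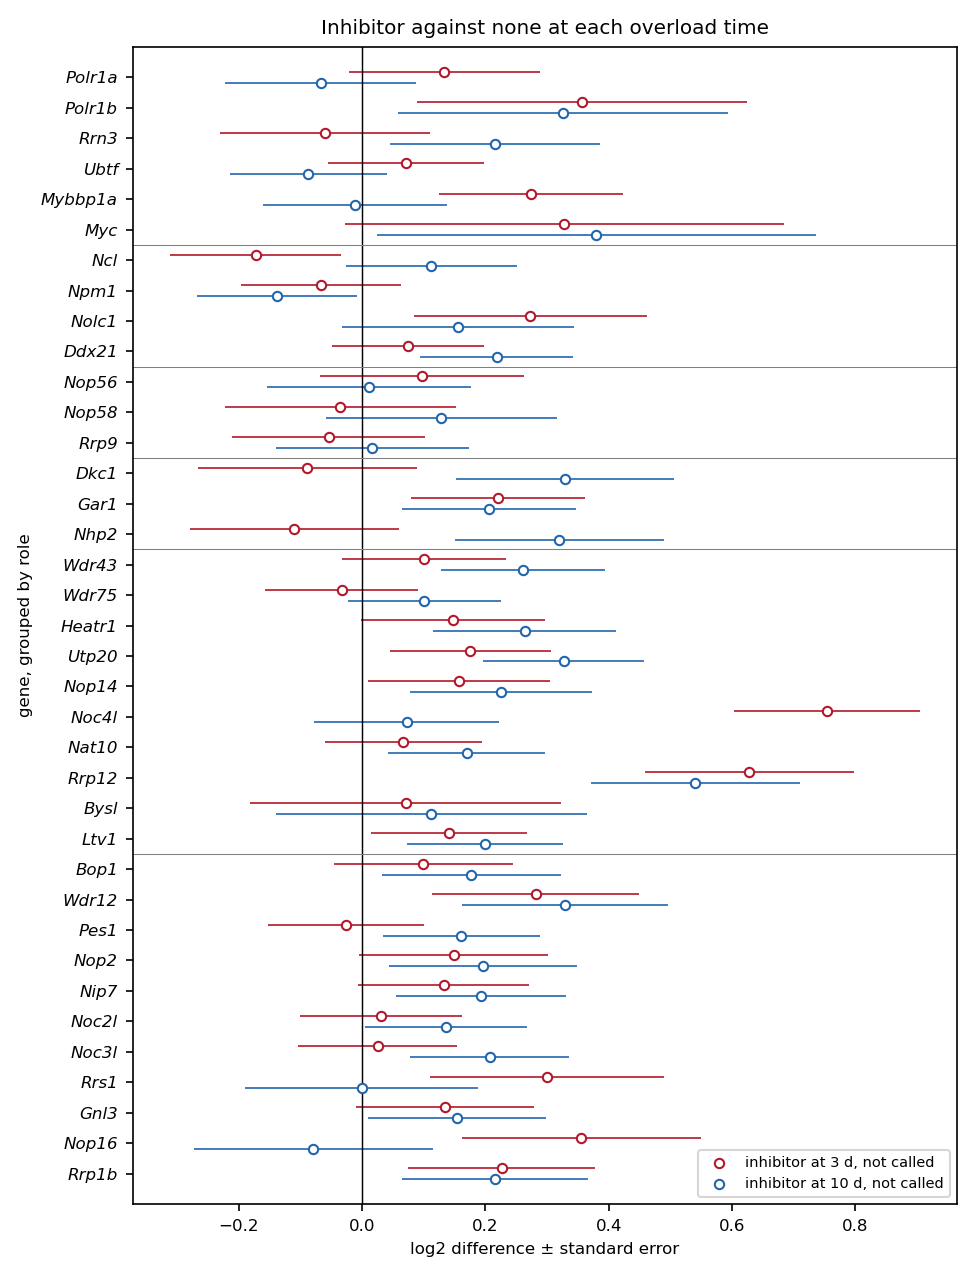
Log2 difference between overload with and without the inhibitor at 3 d (red) and 10 d (blue) for each of the 37 members, with the standard error as a line; open points mark that none was called. Most points lie right of 0 (28 of 37 at 3 d and 31 of 37 at 10 d), with Noc4l at 3 d (0.75) and Rrp12 at both times (0.63 and 0.54) farthest out.

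Other genes of ribosome biogenesis were taken from a list of 131, of which 124 were measured. At 3 d, 12 rose and 2 fell (9.68% rose, against 9.31% of all genes), with a median of 0.14. The largest rises were those of Ppan at 1.16 ± 0.20 and Nol12 at 1.10 ± 0.16, both of large subunit assembly, and Utp18 of the small subunit at 0.73 ± 0.13 (adjusted p = 0.0054, 0.0023 and 0.0059). Imp3 fell by 0.73 ± 0.17 and Rcl1 by 0.57 ± 0.14, both of small subunit processing (adjusted p = 0.017 and 0.026). At 3 d with the inhibitor, 21 rose and 0 fell (16.9% rose, against 7.71% of all genes), led by the shared RNA polymerase subunit Polr2f at 1.23 ± 0.14, Nol12 at 1.12 ± 0.16 and the small subunit factor Rrp7a at 1.09 ± 0.24 (adjusted p = 0.0012, 0.0029 and 0.017).

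At 10 d, with and without the inhibitor, 0 of the 124 were called, with 4 and 19 at an unadjusted p under 0.05 (background 15.1% and 20.3%). Between 3 d and 10 d, 19 fell and 0 rose without the inhibitor (15.3% fell, against 3.38% of all genes), and 10 fell with it (background 2.66%). Ppan fell by 1.54 ± 0.20, Wdr46 by 0.99 ± 0.12 and Ftsj3 by 0.97 ± 0.13 without the inhibitor (adjusted p = 0.0068, 0.0059 and 0.0075). With it Rrp7a fell by 1.07 ± 0.24, Utp11 by 0.93 ± 0.13 and Polr2f by 0.91 ± 0.14 (adjusted p = 0.043, 0.0083 and 0.013). The inhibitor itself called 0 of them at either time, with 10 and 11 at an unadjusted p under 0.05 (background 9.07% and 10.6%).

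Ribosomal proteins, the products these factors assemble, were measured for 59 of 78 genes. At 3 d, 18 rose and 0 fell (30.5% rose, against 9.31% of all genes), and at 3 d with the inhibitor also 18 rose and 0 fell (against 7.71% of all genes risen). Rpl3 rose by 1.73 ± 0.26 at 3 d, Rps23 by 1.11 ± 0.23 and Rpl32 by 0.90 ± 0.17 (adjusted p = 0.0029, 0.011 and 0.0077), and Rps27 rose by 1.54 ± 0.24 and Rpl37 by 1.48 ± 0.16 with the inhibitor (adjusted p = 0.0041 and 0.00086). At 10 d, with or without the inhibitor, limma called 0, with 19 and 12 of the 59 at an unadjusted p under 0.05 (background 15.1% and 20.3%). Between 3 d and 10 d, 4 fell without and 2 with the inhibitor (background 3.38% and 2.66%), among them Rps23 by 1.36 ± 0.23 without it and Rps27 by 1.41 ± 0.24 with it (adjusted p = 0.015 and 0.018). Many of these genes have near-identical processed copies in the genome that can share probes, so their values are uncertain.

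Partners and relatives of Myc were measured for 10 genes. Mxi1, a repressor that competes with Myc for Max, fell by 0.76 ± 0.16 at 3 d (adjusted p = 0.013), and Mxd4, of the same family, rose by 0.66 ± 0.15 at 10 d (adjusted p = 0.041). Mlx, a related dimer partner, fell by 0.64 ± 0.13 between 3 d and 10 d with the inhibitor (adjusted p = 0.030). The other 7 were not called in any comparison.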

How the data were processed

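Each array of the Affymetrix Mouse Gene 2.1 ST strips held plantaris RNA of 4 muscles. The labels name 2 labelling kits for every sample. The authors deposited log2 values (41345 probe sets, range -0.45 to 12.71); the submitters' processing notes name RMA, oligo and limma, without versions. RMA equalizes intensity distributions between arrays and compresses changes of dim genes.

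Probe sets with 1 symbol (23521 of 41345) gave 22180 genes, none filtered, and the brightest stood for each. Each gene was fitted in limma 3.58.1 (R 4.3.3) with 1 coefficient per group over 10 arrays (5 residual and 3.58 prior degrees of freedom) in 10 comparisons, and the steps were checked on simulated data. Values of every array are given for members called in any comparison, those with the largest and smallest 3 d difference per role, and Myc, Polr1a, Polr1b, Rrn3 and Ubtf; of other biogenesis genes, the 3 largest called changes per direction. The members and lists were chosen with earlier results of these data known. Arrays limit precision by their number. Alternatives were normalization, a filter on dim genes, the probe set rule, moderation, the samples fitted and each array left out.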

Additional observations from a re-analysis of the deposited data

How the results depend on the processing

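No paired analysis was possible because the labels give no number that links pools of different groups. The counts of members called against no overload moved as follows. At 3 d the main count of 9 became 5 with arrays set to a common median over genes (an alternative chosen after seeing the data), 5 with only the groups compared in the fit, and 4 to 9 on leaving out each array. Beyond these 9, Ncl, Npm1 and Wdr43 were each called at 3 d in 2 of the 7 alternatives other than leaving out 1 array, and Wdr75 in 1. At 3 d with the inhibitor the count of 9 became 17 among genes at or above the median level, 15 with an intensity trend and robust prior, and 5 to 10 on leaving out each array. Between 3 d and 10 d the count of 12 became 21 and 20 under those settings, 0 with only the groups compared, and 0 to 10 on leaving out each array. With the inhibitor the count of 6 became 20 and 17 under those settings, 0 with only the groups compared, and 0 to 6 on leaving out each array. Averaged over both times, the inhibitor count of 0 became 1 under the level filter, 1 under the trend, and 0 to 1 on leaving out each array (1 without pool 1 of 10 d overload); that member was Rrp12 under each. Apart from the common median, no share of all genes called under an alternative was set beside these counts. They therefore describe the members alone and do not compare them with all genes. The cause of these moves was not tested, except that fewer genes or samples enter some fits. Counts at 10 d against no overload and for the inhibitor at each time were 0 under every alternative run, and no called difference changed sign. With 2 pools per group, small changes of dim genes could be missed.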
